A study of Homo sapiens with 20 samples.

Results

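H3K27ac was compared between FBXW7-deficient (KO) and wild type (WT) HCT-116 cells, a human colorectal cancer line, under oxaliplatin (OXPT). All 4 libraries came from cells transfected for 48 h with control esiRNA (esiCT), small interfering RNAs made by enzymatic digestion, and exposed to 50 µM OXPT during the final 24 h, so genotype was the only labelled difference. Each genotype had a replicate A and a replicate B, out of 16 H3K27ac libraries in the series. The labels state that independent experiments were pooled, while the methods of the study speak of biological duplicates, and how the letters relate to the pooled experiments is not stated. Whether the KO line is 1 clone is not given either, so a clonal difference cannot be told apart from the loss of FBXW7.

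The peak lists of the 4 libraries were merged wherever they overlapped by at least 1 bp, and the super-enhancer (SE) lists likewise. A region was KO-side when both KO libraries and neither WT library called it, and WT-side in the opposite case. Of 34561 peak regions, 524 were KO-side (1.52%), 775 were WT-side (2.24%) and 2763 were called in all 4 libraries. Of 1066 SE regions, 98 were KO-side (9.19%), 5 were WT-side (0.469%) and 159 were called in all 4. These counts are descriptions with no test, because the rule that chose the regions used the same calls.

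FBXW7 is the substrate-recognition subunit of an SCF ubiquitin ligase, which marks regulators such as MYC, cyclin E, JUN, NOTCH proteins and KLF5 for proteasomal degradation. Oxaliplatin forms DNA crosslinks that block replication and activate the damage response. H3K27ac labels active promoters and enhancers, and an SE is a cluster of strongly acetylated enhancers, often near genes of cell identity.

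The sequences under 6 peak summits are shown so that the top-ranked switched elements and the SEs discussed further on can be located. On each side, the distal and the start-site region with the highest lower summit were taken. The lower summit of a region is the smaller of its replicate A and replicate B summit folds. The sequences under the strongest KO summits in the SEs at CD44 and YAP1, which were picked after their values were seen, were added. Each is 300 bases of the hg38 plus strand, centred on the summit, with capitals marking matches on either strand to TGANTCA (AP-1), TGACGTCA (CRE), CACGTG (E-box), GGAATG (TEAD) or CTTTGA (TCF/LEF).
ARHGAP29, KO-side distal region, chr1:94195875-94196174: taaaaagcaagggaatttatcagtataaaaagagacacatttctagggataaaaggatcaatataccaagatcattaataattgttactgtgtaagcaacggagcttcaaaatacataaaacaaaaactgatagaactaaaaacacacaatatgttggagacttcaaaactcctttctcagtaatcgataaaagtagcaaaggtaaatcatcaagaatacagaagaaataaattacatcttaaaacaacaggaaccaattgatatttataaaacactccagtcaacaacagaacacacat
MTAP, KO-side start-site region, chr9:21803705-21804004: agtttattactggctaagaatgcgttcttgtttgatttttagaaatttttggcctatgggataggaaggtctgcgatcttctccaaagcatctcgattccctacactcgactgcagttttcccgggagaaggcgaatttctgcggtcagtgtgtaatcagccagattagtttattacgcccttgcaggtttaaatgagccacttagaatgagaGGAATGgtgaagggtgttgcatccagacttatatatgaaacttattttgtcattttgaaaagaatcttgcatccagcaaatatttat
CD44, KO-side SE, chr11:35165464-35165763: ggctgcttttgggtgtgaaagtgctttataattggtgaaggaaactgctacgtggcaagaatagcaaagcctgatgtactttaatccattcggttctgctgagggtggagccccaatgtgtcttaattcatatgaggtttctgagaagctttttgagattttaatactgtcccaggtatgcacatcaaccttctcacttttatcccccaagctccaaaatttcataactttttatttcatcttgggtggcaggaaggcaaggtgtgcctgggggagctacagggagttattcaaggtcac
YAP1, KO-side SE, chr11:102112735-102113034: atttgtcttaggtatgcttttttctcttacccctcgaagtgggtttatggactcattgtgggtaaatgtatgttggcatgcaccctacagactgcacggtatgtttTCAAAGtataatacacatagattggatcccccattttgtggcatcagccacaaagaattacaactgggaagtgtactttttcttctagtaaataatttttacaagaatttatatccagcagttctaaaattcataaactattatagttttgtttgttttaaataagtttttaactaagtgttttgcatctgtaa
MPRIP, WT-side distal region, chr17:17011999-17012298: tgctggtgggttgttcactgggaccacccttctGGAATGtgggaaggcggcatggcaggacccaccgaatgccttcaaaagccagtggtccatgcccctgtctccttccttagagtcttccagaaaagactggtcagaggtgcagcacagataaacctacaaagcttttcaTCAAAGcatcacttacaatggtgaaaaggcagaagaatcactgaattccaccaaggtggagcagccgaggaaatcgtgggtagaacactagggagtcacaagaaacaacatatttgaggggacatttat
PTPN23, WT-side start-site region, chr3:47380234-47380533: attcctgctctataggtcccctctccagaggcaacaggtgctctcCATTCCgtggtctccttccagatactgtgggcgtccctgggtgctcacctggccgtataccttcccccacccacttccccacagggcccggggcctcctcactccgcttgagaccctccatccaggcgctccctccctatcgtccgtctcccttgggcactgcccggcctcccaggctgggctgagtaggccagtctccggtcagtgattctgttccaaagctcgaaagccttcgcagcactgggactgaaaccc

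Replicate letter separated the peak numbers more than genotype did. The peak lists held 24346 peaks in WT replicate A, 21875 in KO replicate A, 10562 in WT replicate B and 8216 in KO replicate B. Read totals are not part of the lists, and an index of depth, the lowest local background shared by at least 20 peaks, was 2.1 reads in WT A, 2.134 in KO A, 1.97 in WT B and 1.291 in KO B. KO replicate B was thus the shallowest library, and its lowest callable fold at that background was 3.492 against 3.226 in WT A. The median summit held 16, 16, 15 and 12 reads in the same order, so a single read moves a typical summit fold visibly. The log2 ratio of KO over WT peak numbers was -0.154 for A and -0.362 for B, a mean of -0.258 ± 0.147 (SD, n = 2 pairs, exact permutation p = 0.5, two-sided). With 2 pairs this test cannot give a p below 0.5.

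**Figure D1:**
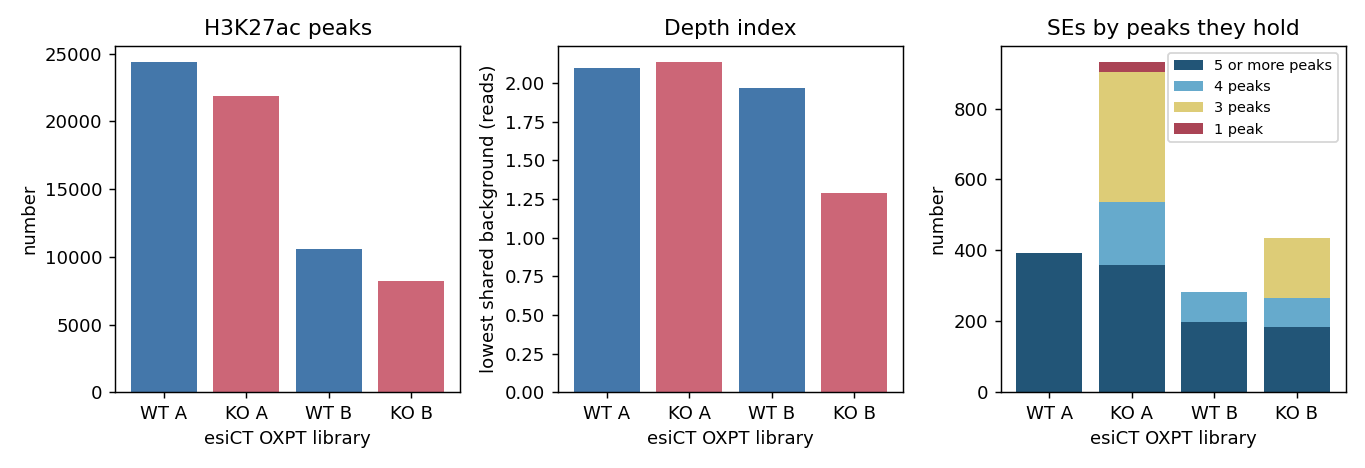
Number of H3K27ac peaks, depth index (lowest local background shared by at least 20 peaks, in reads) and number of SEs in each esiCT OXPT library, with blue for WT and red for KO in the first 2 panels. In the third panel the SEs are stacked by how many peaks of their own library they hold: WT A has no SE under 5 peaks, WT B none under 4, and both KO libraries have many with 3.

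The targeted gene and 5 genes tied to the design were read in every library. Within 10 kb of FBXW7 (chr4:152320544-152536092) there were 3 peaks in WT A and 1 in KO A, and none in either B library. Its start-site peak had a summit fold of 3.47 in WT A and 3.99 in KO A, so the start-site mark was present in both genotypes and does not check the knockout. HDAC4, a class IIa deacetylase, held 1 SE in WT A and 2 in KO A, and none in the B libraries. RNF43, a negative regulator of WNT receptors, carried an SE in all 4 libraries, with start-site folds of 3.97 (WT A), 9.36 (KO A), 5.61 (WT B) and 7.63 (KO B), higher in KO for both letters. NR4A2, an orphan nuclear receptor, also carried an SE in all 4, with start-site folds of 4.96, 7.6, 3.46 and 4.56 in the same order. These too were higher in KO for both letters. The highest NR4A2 fold within 10 kb was 5.22 in WT A and 7.6 in KO A, but 5.33 in WT B and 4.58 in KO B. Over regions called in all 4 libraries, the uncentred median log2 fold was higher in KO by 0.122 for A and 0.149 for B. The p53 targets PMAIP1 and BBC3, which encode pro-apoptotic BH3-only proteins, held no SE in any of the 4 libraries. Of 12 colon epithelium markers, 5 had a start-site peak in all 4 libraries and 2 in none, while 15 of 15 markers of other cell types had none. Over all protein-coding genes, 6.5% had one in all 4 libraries and 46.8% in none.

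SEs were more numerous in the KO lists. WT A held 394 SEs, KO A 930, WT B 284 and KO B 435, ratios of 2.36 for A and 1.53 for B. This is a mean difference of 0.927 ± 0.441 on the log2 scale (SD over 2 pairs, n = 2, exact permutation p = 0.5, two-sided). KO SEs were also shorter, with a median of 10.68 kb in KO A and 9.146 kb in KO B against 20 kb in WT A and 15.11 kb in WT B.

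The number of peaks that an SE had to hold differed between the lists. Every SE began and ended at a peak edge of its own library, and the fewest peaks in any SE was 5 in WT A, 4 in WT B, 3 in KO B and 1 in KO A. In KO A, 28 SEs held 1 peak, 365 held 3 and 178 held 4, and in KO B, 168 held 3 and 82 held 4. When only SEs with at least 5 peaks were counted, a setting chosen after seeing the data, 394 were left in WT A, 359 in KO A, 199 in WT B and 185 in KO B. The log2 ratio then turned to -0.134 for A and -0.105 for B, a mean of -0.12. Median lengths at that setting were 20, 19.65, 19.56 and 17.88 kb in the same order. Switched SE regions numbered 6 on the KO side and 14 on the WT side, and 5 of the 98 KO-side and 2 of the 5 WT-side regions of the full lists were among them. Which step gave the lists their different minimum is not stated in the sources used here.

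The KO-side SE regions are described as deposited, with this limit attached to each. The widest lay over SEMA3A, which encodes a secreted axon guidance cue, 137 kb from its start site (chr7:84022200-84057423, 35.2 kb). Peaks covered 0.82 kb of it in WT A, 7.35 kb in KO A, 0.29 kb in WT B and 1.58 kb in KO B. Its 9 peaks in KO A stood against 2 in WT A, and 5 in KO B against 1 in WT B. A region of similar width, 35 kb, lay 227 kb from SPATA31A5.

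At CD44, the cell-surface hyaluronan receptor and a WNT target, an intronic region of 33.9 kb (chr11:35140577-35174515) held 8 peaks in WT A, 9 in KO A, 5 in WT B and 5 in KO B. Its highest summit fold was 4.88, 5.13, 5.83 and 5.53 in the same order. Peak number and summit thus differed little between genotypes, although only the KO lists named it an SE. At FOSL1, an AP-1 subunit, the 21.9 kb region that also covers the start site of C11orf68 had more peak kb in WT than in KO for both letters, at 10.14 against 9.5 kb in A and 3.58 against 3.31 kb in B.

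Other wide KO-side regions had higher summits or more peak coverage in KO. FGF20, a fibroblast growth factor, lay 164 kb from a 28.4 kb region with 1.32 kb of peaks in WT A, 4.89 in KO A, 1.07 in WT B and 3.64 in KO B. ID3, an inhibitor of basic helix-loop-helix factors, was covered by a 29.5 kb region with 3, 8, 4 and 5 peaks in the order WT A, KO A, WT B, KO B. These 2 regions were KO-side also when at least 5 peaks were required.

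DST, which encodes a cytoskeletal linker, had its start site inside a 31.3 kb region with summits of 6.33, 7.0, 3.99 and 5.91. ONECUT3, a homeobox factor gene, had summits of 7.86, 10.38, 6.4 and 7.62 in a 28.3 kb region. For IGF2BP2, an RNA-binding protein gene, an intronic 24.2 kb region had 4.41, 5.26, 4.9 and 7.96. In all 3 the KO summit was the higher within each letter, but peak coverage was lower in KO B than in WT B, at 1.4 against 2.07 kb for DST, 1.55 against 2.56 for ONECUT3 and 1.39 against 2.14 for IGF2BP2. NFAT5, the osmotic stress factor, lay 25.3 kb from a 25.8 kb region with 8.17 kb of peaks in KO A and 4.51 in WT A, but 1.97 in KO B and 2.53 in WT B. Its summits were 5.83 (WT A), 8.16 (KO A), 5.09 (WT B) and 5.36 (KO B), so in these 4 regions summit height was higher in KO for both letters and coverage for A only.

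Several members of the pathway lists were nearest to a KO-side SE; the regions described here were picked after their values were seen. KLF5, an intestinal transcription factor and FBXW7 substrate, was nearest to a pair of them, 23 kb (chr13:73082026-73096873) and 353 kb away. The nearer held 1.97 kb of peaks in WT A, 4.63 in KO A, 1.34 in WT B and 2.1 in KO B, with summits of 4.78, 6.92, 4.79 and 6.65. YAP1, the transcriptional co-activator of TEAD factors, was covered at its start by a 14.5 kb region (chr11:102107700-102122231) with 6.67, 11.79, 4.63 and 6.08 kb of peaks. The YAP1 summits were 7.33 (WT A), 7.16 (KO A), 4.28 (WT B) and 9.77 (KO B), so the KO summit was higher for B only. Both regions had more peak kb in KO for each letter, in a set that the rule took from SEs called in KO alone. Over the lists, KO-side SEs accounted for 2 of 12 SE regions nearest to FBXW7 substrates, 3 of 10 at intestinal lineage factors, which share KLF5 with the former list, 1 of 6 at YAP and TEAD genes, 1 of 6 at AP-1 and ATF genes, 1 of 16 at WNT targets, 1 of 3 at platinum transport and adduct repair genes (RAD23B) and 1 of 5 at homologous recombination genes (RAD51B). None of the 5 regions at p53 targets, 9 at EGFR family genes, 8 at class IIa HDAC and MEF2 genes, 3 at NOTCH pathway genes, 3 at colon epithelium markers, 2 at BCL2 family genes or 2 at NF-kB targets was KO-side. The lists of respiratory chain genes and of markers of other cells had no SE region, and 9.19% of all SE regions were KO-side.

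Nearly all KO-side SE regions were acetylated in WT too. Both WT libraries had a peak in 93 of the 98, 1 WT library in 4, and neither in 1. A peak was present in WT A in 95 of the 98, against 1009 of all 1066 SE regions, and in WT B in 95, against 874 of 1066. The region without a WT peak, 723 kb from CWH43, had summits of only 1.97 in KO A and 2.47 in KO B. Within letters, 73 of 98 held more peaks in KO A than in WT A, and 78 more in KO B than in WT B. The median number of peaks was 3 in WT A, 4 in KO A, 2 in WT B and 3 in KO B, against 3, 4, 2 and 2 over all SE regions. Peak kb was lower in WT A than in KO A in 87 of 98, against 736 of all 1066 SE regions, and lower in WT B than in KO B in 74 of 98, against 436 of 1066. In 87 of the 98, both WT libraries held fewer peaks than the smallest SE of their own list. The rule took only regions that neither WT list called an SE, so this count is partly set by that choice. Over all SE regions the WT medians also lay below these minimums of 5 peaks in WT A and 4 in WT B.

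**Figure D2:**
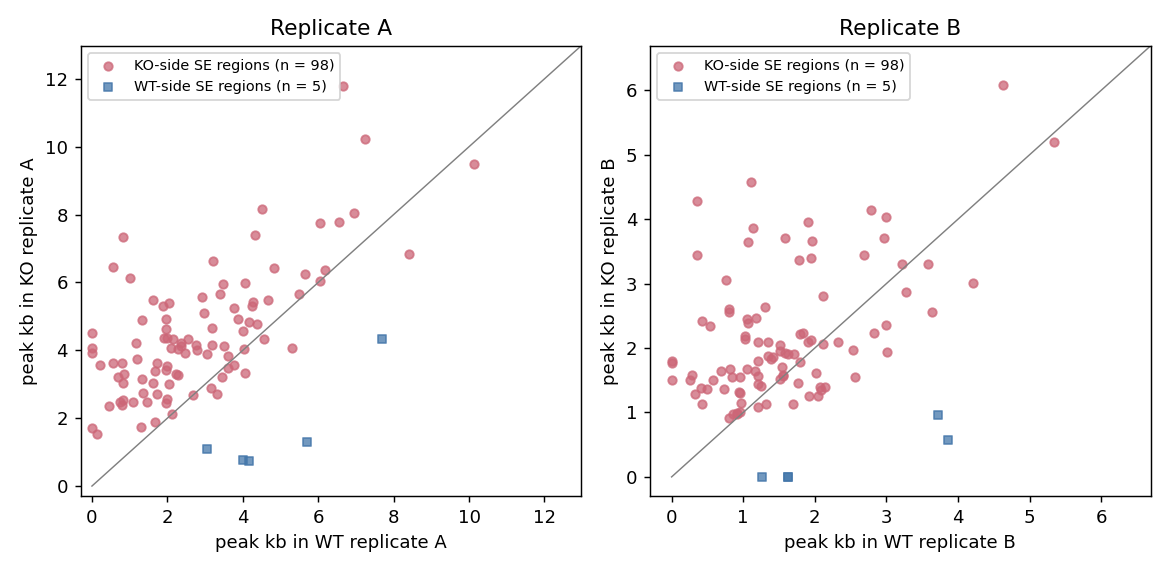
Sequence covered by peaks (kb) in each switched SE region in WT (x axis) against KO (y axis), with replicate A on the left, replicate B on the right and the diagonal marking equality. Most KO-side regions lie above the diagonal but away from 0 on the WT axis, and the 5 WT-side regions lie below it.

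The 5 WT-side SE regions were each nearest to a different gene. PLEKHG6 lay 15.5 kb from the widest (chr12:6256500-6294918, 38.4 kb), which held 6 peaks in WT A, 2 in KO A, 4 in WT B and none in KO B. DRD1, a dopamine receptor gene, was 309 kb from a 16.8 kb region with 5, 2, 6 and 2 peaks in the same order. The other 3 were an intronic region 69.6 kb from REP15, one 4.59 kb from PROSER2, and one inside RAD51B. RAD51B, a gene of homologous recombination, held SE switches in both directions, 317 kb (WT-side) and 157 kb (KO-side) from its start site. The DRD1 and RAD51B regions were WT-side also when at least 5 peaks were required.

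Among single peak regions, the distal KO-side summit that ranked first lay in an intron of ARHGAP29. Its summit fold was 5.87 in KO A (22 reads) and 6.22 in KO B (15 reads), with no peak in WT. Next came regions nearest to PPP3CA, the catalytic subunit of calcineurin, at 5.87 and 5.85, and to ZNF33B, CCDC200, RUBCN, TNFSF18, ARRDC3 and CEMIP, whose lower summit of the pair lay between 5.39 and 5.67. The ARHGAP29 window printed above held none of the 5 motifs. In the other 12 libraries the ARHGAP29 and TNFSF18 regions were each called in all 6 KO and in 4 of 6 WT libraries, and PPP3CA and ARRDC3 in all 6 WT libraries and in 3 and 4 KO libraries. A second ARHGAP29 region, called in all 4 libraries, had the opposite direction, with folds of 4.78 (WT A), 3.32 (KO A), 4.74 (WT B) and 2.61 (KO B).

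KO-side start-site regions were led by MTAP, an enzyme of methionine salvage, with folds of 7.65 in KO A (27 reads) and 5.46 in KO B (17 reads). AGPAT5, SAE1, KLRC3, the shared promoter of ORC3 and RARS2, ADPGK, the shared start region of BEND6 and DST, and TMF1 followed, the lower summit of each pair lying between 5.04 and 5.29. SAE1, a subunit of the SUMO-activating enzyme, appeared on both sides, with its start site KO-side (5.25 and 5.41) and an exonic region 21.0 kb away WT-side (5.64 in WT A and 5.39 in WT B). The BEND6 and DST region, at 7.25 in KO A and 5.08 in KO B, was apart from the DST SE.

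WT-side distal regions were led by one 30 kb from MPRIP, which encodes a myosin phosphatase-interacting protein, at 5.53 in WT A (21 reads) and 6.65 in WT B (19 reads). Regions nearest to SAE1, PC (pyruvate carboxylase), SDK2, ZNF467, BAG3 (an HSP70 co-chaperone), SAV1 (a Hippo pathway scaffold) and CCDC196 followed, with lower summits between 4.89 and 5.39. SAV1 was called in all 6 other WT and no other KO library, and BAG3 in 5 and none. The MPRIP region also fell inside a 22 kb SE region that was WT-side when at least 5 peaks were required. WT-side start-site regions were led by PTPN23, a phosphatase-domain protein of endosomal sorting, at 5.76 in WT A and 7.07 in WT B, then FYTTD1 with RUBCN, VAMP8, PABPC1L, MPP3, ZSCAN2, KRTAP4-7 and LIPH.

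**Figure D3:**
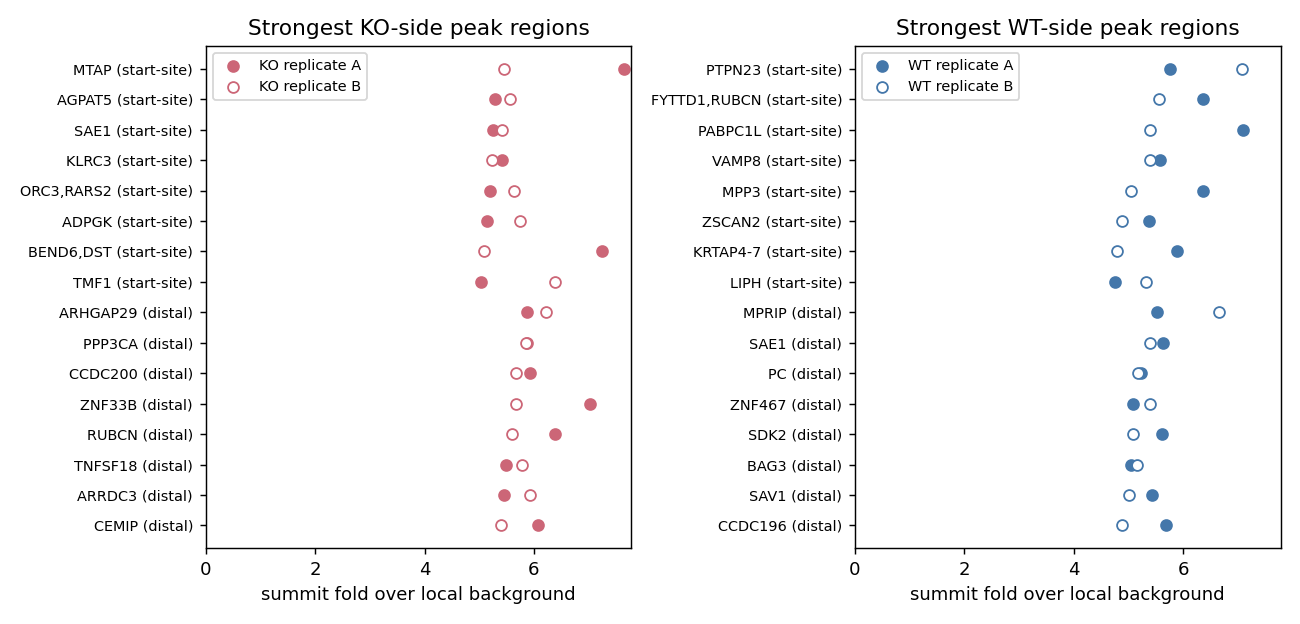
Summit fold over local background (x axis, from 0) of the 8 start-site and 8 distal regions per side with the highest lower summit, with replicate A filled and replicate B open. Every region has a value for 1 genotype only, between 4.76 and 7.65.

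The switched regions were mostly distal. Median summit folds were 4.0 in KO A and 4.36 in KO B for KO-side regions, and 3.84 in WT A and 3.88 in WT B for WT-side regions. Over all regions the medians were 3.97 (WT A), 4.11 (KO A), 4.06 (WT B) and 4.51 (KO B). In regions called in all 4 libraries the medians were 4.78 (WT A), 5.2 (KO A), 4.46 (WT B) and 4.95 (KO B). A start site lay within 1 kb of 176 of 524 KO-side regions (33.6%, 95% Wilson interval 29.7 to 37.7%) and 240 of 775 WT-side regions (31.0%, 27.8 to 34.3%), against 39.4% of all regions. Among distal regions, 48.3% of KO-side, 36.8% of WT-side and 48.4% of shared ones were over 50 kb from a start site, against 37.2% of all. Several genes were nearest to repeated switches: ITPRID2 (of 32 regions in all), SEMA3A (of 23) and SPATA31A6 (of 56) had 4 KO-side and no WT-side regions, BMP4 (of 25) had 4 and 1, DRD1 (of 18) had 5 WT-side and no KO-side regions, and IRS1 (of 73) had 3 and 5.

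Which side had more peak regions depended on how depth was treated. With the 4 lists cut to 8216 peaks each, there were 577 KO-side and 458 WT-side regions, and with summit reads scaled to the lowest background, 667 and 465. With lists of equal length the start-site share was 47.5% on the KO side and 49.8% on the WT side, against 46.6% of all regions. With folds of at least 3.492 there were 609 KO-side and 634 WT-side regions. Of the deposited-list regions, 152 of 524 KO-side and 152 of 775 WT-side overlapped a region of the same side with lists of equal length. With scaled reads 348 KO-side and 282 WT-side regions did so, and with folds of at least 3.492, 351 and 424.

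Motif matches in 300-base windows around the summit were counted as a description. CTTTGA, the TCF/LEF core, was in 28.4% of KO-side distal windows, 20.7% of WT-side, 18.8% of shared and 18.5% of all distal windows. GC content differed too, with medians of 39.3%, 45.3%, 42.0% and 46.7% in the same order. Split at 35, 40, 45 and 50% GC, bounds set after seeing the data, the KO-side share from the lowest to the highest bin was 30.6%, 36.6%, 22.2%, 26.9% and 21.7%, against 24.0%, 27.6%, 22.9%, 17.5% and 11.7% of all distal windows. The KO-side bins held 111, 71, 54, 52 and 60 windows. WT-side windows under 35% GC held it in 28.4%, and those of 35 to 40% in 25.3%. TGANTCA, the AP-1 motif, was in 9.77% of KO-side, 8.79% of WT-side and 8.62% of all distal windows. TEAD cores were in 15.8%, 17.4% and 15.1%, and the E-box in 2.59%, 3.36% and 3.97%. The CRE was in none of the 348 KO-side or 535 WT-side distal windows and in 0.124% of all. No motif match says that a factor bound there.

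The gene lists gave few switched promoters. Over 19609 protein-coding genes, 132 had a start-site peak in both KO and neither WT library (0.673%) and 145 the reverse (0.739%). TNFRSF10C, a decoy receptor for TRAIL and a p53 target, was the 1 list member that switched, with folds of 3.67 in WT A and 4.17 in WT B and no KO peak. Of 37 p53 targets, 16 carried a start-site peak in all 4 libraries and 2 in none, against 6.5% and 46.8% of all genes. Among 27 FBXW7 substrates these numbers were 5 and 2, among 16 BCL2 family genes 3 and 3, among 29 genes of platinum transport and adduct repair 9 and 7, and among 20 homologous recombination genes 1 and 0. The NOTCH pathway had no member of 19 with a peak in all 4 libraries and 7 with none.

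Regions called in all 4 libraries allowed a test of summit height. They were defined by the same merged calls, so a region that lost its peak in a library is not among them. In limma on median-centred log2 folds, with replicate letter as a term, 0 of 2763 regions were higher in KO and 0 were lower at an adjusted p under 0.05 (0% each). The smallest adjusted p was 0.387. At an unadjusted p under 0.05, 99 were higher and 89 lower, 6.8% of the regions. The sign was the same in both letters for 1390 regions (50.3%), and the difference of a region had a median SE of 0.28 on the log2 scale. No difference of the size seen in these regions passed the threshold, those near 1.05 included.

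The regions with the smallest p are given as values. The largest KO excess lay 135 kb from ATXN7L3B, with folds of 3.16 (WT A), 7.29 (KO A), 2.66 (WT B) and 5.96 (KO B), a log2 difference of 1.05 ± 0.28 (SE, limma adjusted p = 0.387). FAT1, an atypical cadherin gene, lay 96.7 kb from a region at 5.54, 9.91, 3.66 and 9.51. ACSL5, an acyl-CoA synthetase gene, lay 41.6 kb from a region at 3.8, 8.03, 3.2 and 6.45. The ATXN7L3B and ACSL5 regions lay in KO-side SE regions. FEZ2, MALL, H2AC15 with H2BC15, ACIN1 with C14orf119, and VRK1 completed the 8 on the KO side.

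The largest WT excess was at the start site of DDR1, a collagen receptor kinase, with folds of 9.68 (WT A), 4.31 (KO A), 4.93 (WT B) and 3.1 (KO B), a log2 difference of -1.05 ± 0.28 (SE, limma adjusted p = 0.387). An intronic region 33.8 kb from C2CD3 had 6.63, 3.37, 6.1 and 3.53. At a region 245 kb from ZFP36L1, which encodes an RNA-decay factor, the folds were 6.86, 4.48, 6.73 and 3.49. That region lay in a KO-side SE (chr14:68544101-68550233), so an SE called only in KO held a summit that was lower in KO for both letters. NANOS3, ARHGAP29, SH3RF1, DIPK2B and BMP6 completed the 8.

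**Figure D4:**
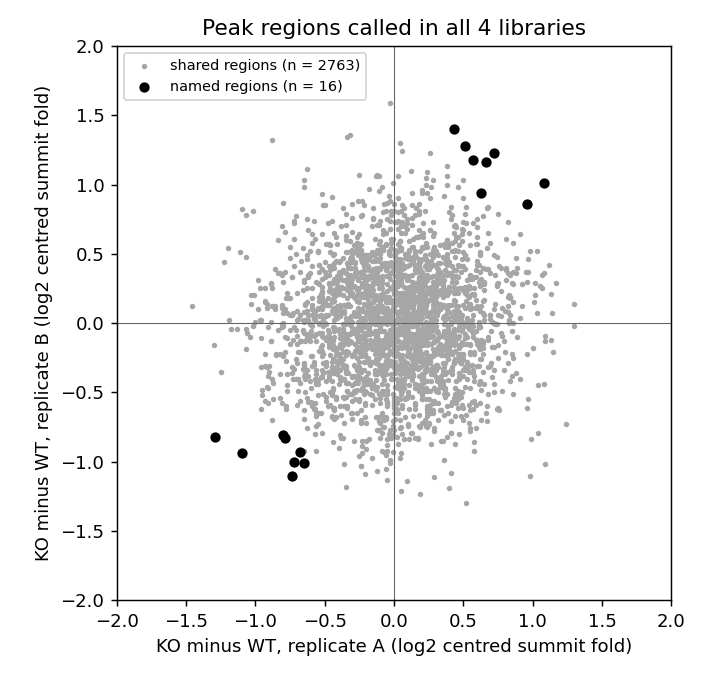
KO minus WT difference of the median-centred log2 summit fold in replicate A (x axis) and replicate B (y axis) for the 2763 regions called in all 4 libraries, with the 16 named regions in black. The cloud is round, with 50.3% of the regions in the quadrants of equal sign.

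The other 12 libraries of the series, which the rule did not use, showed where the switched regions were called elsewhere. KO-side peak regions were called in 72.3% and 76.3% of cases in the untreated (UNT) WT esiCT libraries A and B, against 62.8% and 55.5% of all regions. In the UNT KO esiCT libraries they were called in 32.8% and 26.5%, against 26.6% and 11.9%. The KO-side regions were more often called in untreated WT than in untreated KO cells, but so were all regions. The KO-side share was above theirs in both untreated genotypes. A KO-side region had to be called in both KO libraries, while 24.1% of all regions were called in 1 KO library alone and 32.5% in 1 WT library alone. How far this set the shares was not tested. WT-side regions were called in 67.9% and 68.1% of cases in UNT WT, and in 12.3% and 7.1% in UNT KO, below all regions there. Under OXPT with HDAC4 silenced, KO-side regions were called in 35.5% and 43.7% in WT, against 41.7% and 36.9% of all regions. In KO of that condition they were called in 45.8% and 17.9%, against 37.6% and 11.9%. WT-side regions were called there in 52.0% and 57.2% in WT, and in 32.0% and 6.71% in KO. More WT than KO libraries among the 12 called 388 of the 524 KO-side regions (74.0%), against 68.5% of all regions, and 672 of the 775 WT-side regions (86.7%). More KO than WT libraries called 58 KO-side regions (11.1%) and 15 WT-side regions (1.94%), against 4.7% of all regions. No library of the 12 called 10 of the KO-side and 43 of the WT-side regions, against 6623 of all 34561. List length moved with these shares, as KO lists were shorter than the WT lists of the same condition and letter in all but esiHDAC4 UNT replicate A, and its part was not tested.

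In untreated esiCT cells, SE regions showed the same order. Of the 98 KO-side SE regions, 59.2% and 84.7% were SEs in the UNT WT esiCT libraries A and B, against 52.2% and 71.3% of all SE regions, and 31.6% and 28.6% in UNT KO esiCT, against 25.8% and 23.4%. With HDAC4 silenced, the OXPT-treated KO libraries called 32.7% and 6.12%, against 33.0% and 16.1% of all SE regions. The WT libraries of that condition called 33.7% and 36.7%, against 45.2% and 35.4%, so the KO-side share was above that of all SE regions in WT B only. EHF, an epithelial ETS factor, lay 13.8 kb from a KO-side SE, which was called in 5 of the 6 other WT libraries and 1 of the 6 other KO libraries. S100A2, a calcium-binding protein gene, had its start in one called in 5 of 6 WT and no other KO library. Both were picked after their values were seen. The fewest peaks per SE differed among these libraries as well, from 1 to 4. KO-side SE regions were called in both KO libraries, while 47.2% of all SE regions were called in 1 KO library alone. A further 6.29% were called in 1 WT library alone. The part of these differences in the shares was not tested.

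**Figure D5:**
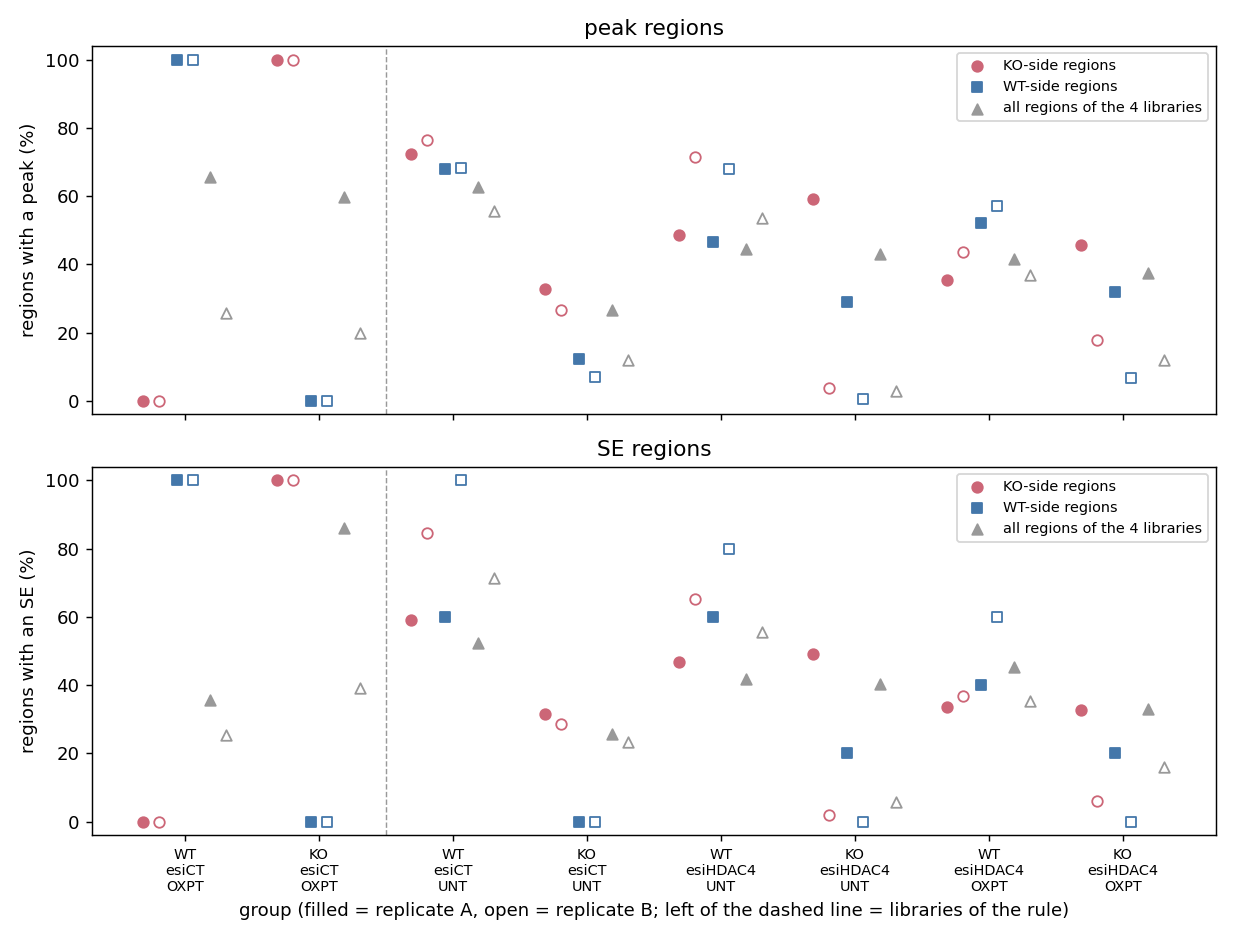
Share of KO-side regions (circles), WT-side regions (squares) and all regions of the 4 libraries (triangles) with a peak (upper panel) or an SE (lower panel) in each of the 16 libraries, filled for replicate A and open for B. The 100% and 0% values left of the dashed line are fixed by the rule; in untreated WT, KO-side peak regions reach 72.3% and 76.3%.

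Switched regions were spread over the chromosomes. KO-side regions made up between 0.865% of peak regions (chromosome 19) and 3.74% (X, 12 of 321), and WT-side regions between 1.55% (chromosome 18) and 3.04% (chromosome 15). Shared regions on X had a median KO minus WT difference of -0.14 on the log2 scale, but only 7 shared regions lay there. On chromosome 18, with 36 shared regions, it was -0.149 (-0.145 for A and -0.06 for B). On chromosome 2, with 193 shared regions, the median difference was 0.09.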

How the data were processed

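H3K27ac ChIP-seq of HCT-116 cells was analysed for 2 KO and 2 WT libraries (esiCT, OXPT), with the other 12 libraries used only to look up regions. Per the labels and the methods of the study, the authors used Trimmomatic 0.39 for trimming, Bowtie2 2.4.4 for alignment to hg38, SAMtools 1.18 for duplicate removal, MACS2 2.2.7.1 for peaks (1 list per library) and ROSE for SEs. In the deposited peak lists the fold is a ratio of summit pileup to local background, the p-value and q-value are −log10 values, and the score is an integer made from the q-value. SEs were deposited as positions, without values. The study kept SEs that carried H3K4me1, but the sources do not say whether the lists used here are those before or after that step. The 4 input samples were not used here.

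All 64999 peaks of the 4 libraries on chromosomes 1 to 22 and X ended inside the hg38 chromosome lengths. Lists were merged by 1 bp of overlap. Start sites were those of protein-coding genes of GENCODE 44, and a region within 1 kb of one was a start-site region. Summit reads were solved from fold and p (tolerance 0.01 on −log10 p, below 60), which recovered 99.99 to 100% of peaks. This step, tested on 2708 simulated peaks, returned the true read number for 100% of them. Peak and SE numbers were compared by an exact permutation test that exchanged genotype within letters, and summit folds by limma 3.58.1 in R 4.3.3 with letter and genotype, after the design of the study, with Benjamini-Hochberg adjustment at 0.05; limma was tested on simulated data. Intervals cover counting error only.

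Members, lists and tests were chosen with earlier results of these data known. Named were FBXW7, HDAC4, RNF43, NR4A2, PMAIP1 and BBC3, the 10 widest SE regions per side, the 8 start-site and 8 distal regions per side with the highest lower summit, the 8 shared regions with the smallest p per direction and the same sign in both letters, and list members whose start-site peak switched. Peak numbers, regions, classes and folds were recomputed with other merging, thresholds, depth matching, start-site definitions and normalizations, and without each library.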

Additional observations from a re-analysis of the deposited data

Results flagged for a closer look

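The KO over WT ratio of SE numbers had the opposite sign in 2 of the 3 other conditions. On the log2 scale it was 1.24 (A) and 0.615 (B) with esiCT and OXPT, -1.4 and -2.22 in untreated esiCT cells, and -0.85 and -1.28 with HDAC4 silenced under OXPT. In untreated cells with HDAC4 silenced it was 0.137 and -3.55, so the letters differed in sign. The difference between conditions was not tested. When only SEs with at least 5 peaks were counted, the ratios were -0.134 and -0.105, -1.44 and -1.69, and -0.363 and -1.15 in the same order, so these signs no longer differed, and it was -0.119 and -3.66 in untreated cells with HDAC4 silenced. The fewest peaks in an SE was 4 in WT and KO replicate A and 3 in WT and KO replicate B of the untreated esiCT group.

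Peaks on contigs other than chromosomes 1 to 22 and X were left out of the comparisons. They numbered 34 in WT A, 50 in KO A, 28 in WT B and 31 in KO B.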

How the results depend on the processing

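Most alternatives changed 1 choice. The limma fits without 1 library also dropped the replicate block. The scaling of summit reads also applied the same cutoff, a −log10 p of 4.06, to every library. The log2 ratio of peak numbers, -0.258, was 0.69 with −log10 q of at least 10 and 0.0599 with summit reads scaled to the lowest background, and ranged from -0.965 to 0.448 with 1 library left out, turning to 0.344 without WT A and 0.448 without KO B. That of SE numbers, 0.927, was -0.12 with at least 5 peaks per SE and ranged from 0.379 to 1.48 with 1 library left out. KO-side peak regions numbered 66 with −log10 q of at least 10, and 764 to 7599 without 1 library (1985 without WT A, 2142 without KO A, 7599 without KO B). WT-side peak regions numbered 458 with lists of equal length, 5 with −log10 q of at least 10, 465 with scaled reads, and 933 to 10012 without 1 library (3151 without WT A, 3025 without KO A, 10012 without WT B). KO-side SE regions numbered 25 with a peak of −log10 q of at least 10, 6 with at least 5 peaks, and 130 to 544 without 1 library (153 without WT A, 158 without KO A, 544 without KO B), where 1 list fewer has to agree. WT-side SE regions numbered 8 at 50% coverage, 0 with a peak of −log10 q of at least 10, 14 with at least 5 peaks, and 8 to 54 without 1 library (24 without WT A, 54 without WT B, 25 without KO A, 8 without KO B).

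The start-site share of KO-side regions was 41.8% with start sites of any gene type, 47.5% with lists of equal length, 41.4% with folds of at least 3.492, 41.8% with scaled reads, and 22.5 to 51.2% without 1 library. That of WT-side regions was 34.5% within 2 kb, 37.7% with any gene type, 49.8% with lists of equal length, 37.2% with folds of at least 3.492, 37.2% with scaled reads, and 19.3 to 47.9% without 1 library. The scaling, the fold of 3.492 and the minimum of 5 peaks were chosen after seeing the data. The cause of these shifts was not tested.

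Without the replicate block, the exact permutation p was 0.667 for peak numbers (log2 ratio -0.258) and 0.333 for SE numbers (0.927), and limma called 0 shared regions in every alternative, those without 1 library included. At an unadjusted p under 0.05, 80 regions were higher and 73 lower in KO without the block, and 191 and 22 without centring, where the median difference was 0.139. Same-letter deviations of the summit folds correlated at 0.0737. With 2 pairs and a KO library at a background of 1.291 reads, weak peaks could not be compared.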
